A study of Mus musculus with 6 samples.

Results

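The collagen hydroxylases and collagen chaperones are a set of 10 genes whose products modify and fold procollagen inside the endoplasmic reticulum (ER): the lysyl hydroxylases *Plod1*, *Plod2* and *Plod3*, the prolyl 4-hydroxylase subunits *P4ha1*, *P4ha2*, *P4ha3* and *P4hb*, the collagen chaperone *Serpinh1*, and *Crtap* and *Ppib* of the prolyl 3-hydroxylation complex. They were chosen by gene name, and each of the 10 names matched 1 of the 38553 genes in the deposited table. The 10 genes had an FPKM (fragments mapped to a gene, scaled by its length and by all mapped fragments) between 14.1 and 447 in the 6 samples. For none of the 10 was a difference between *Rbfox2* mutants and controls found beyond the spread between samples. The log2 fold changes of mutants over controls lay between -0.19 for *Plod3* and 0.019 for *Serpinh1*.

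RNA-Seq was run on poly(A)+ RNA of microdissected craniofacial tissue from E12.5 mouse embryos, with 3 independent biological replicates of each genotype. Controls were Rbfox2 flox/flox and carried no Cre, and mutants were Pax3Cre/+:Rbfox2 flox/flox, so the floxed alleles were common to both groups. Pax3Cre is a knock-in allele that is active in premigratory neural crest and also in paraxial mesoderm and its somite derivatives, and the controls lacked this allele, so its presence and the loss of *Rbfox2* cannot be told apart here. The dissected tissue also holds cells of other lineages, such as neural and vascular cells, many of which keep *Rbfox2* intact.

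Procollagen chains are modified on proline and lysine while they enter the ER and before they wind into a triple helix. Prolyl 4-hydroxylation makes the helix stable at body temperature, lysyl hydroxylation prepares sites for sugars and for the crosslinks that tie fibrils together, and chaperones hold the folded helix until it leaves the ER. The hydroxylases need iron, oxygen, 2-oxoglutarate and ascorbate, and mutations in several of these genes cause brittle bone or connective tissue disorders. In the embryonic face, the mesenchyme that builds palate, cartilage and membrane bone is rich in collagen.

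*Plod2* is the 1 gene of the set shown with its sequence in the coding region. The annotation lists 5 transcripts for it, 2 of them coding, and its whole-gene FPKM can add up several forms. This is not particular to *Plod2*, since only *Crtap* and *Ppib* have 1 coding transcript each in the annotation. For *Plod2* the annotation (GENCODE M21, GRCm38) lists coding transcripts of 20 and of 19 exons. Their coding sequences, of 2274 and 2211 bases, differ by exon 14, while the outer ends of their first and last exons also differ. Exon 14 is a coding exon of 63 bases or 21 codons at chr9:92601985-92602047 on the plus strand. The exon is 49.2% G or C and holds no GCATG, the core of the motif that Rbfox proteins bind. Rbfox proteins bind this motif in the introns beside their target exons. The introns beside exon 14 were not searched here, so whether they hold the motif is unknown. In the sequences the exon is in capitals and the 15 bases of coding sequence on either side are in lower case.
*Plod2* with the exon: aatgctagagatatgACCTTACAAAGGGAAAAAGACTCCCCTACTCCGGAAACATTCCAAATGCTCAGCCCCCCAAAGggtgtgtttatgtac
*Plod2* without the exon: aatgctagagatatgggtgtgtttatgtac
The exon is 1.72% of the 3663 bases of its transcript, so a shift between the forms would leave the gene-level value nearly as it was, and inclusion of the exon was not analysed here.

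The promoters of the set were searched for ACGTG on either strand, letters found in many hypoxia response elements and within the E-box CACGTG. RefSeq (GRCm38.p6) promoters ran from 250 bases before to 50 bases after the start that RefSeq gives the gene. That of *P4ha2*, chr11:54100674-54100973, lies inside the gene as GENCODE places it, which starts at 54100095. Promoters were found for 9 of the 10 genes, with no entry for *Plod2*. The letters occurred in 6 of these 9 (66.7%), against 19.6% of 32851 promoters and 25.9% of the 10269 promoters of genes tested. The windows of 25 bases are printed because these genes share the letters, which are in capitals and read CACGT where they lie on the other strand.
*P4ha1*, chr10:59323270-59323294, plus strand: tgacagagcgCACGTagcgagggct
*P4ha2*, chr11:54100836-54100860, plus strand: tgcatcgcatACGTGcagcgcgtgg
*Plod3*, chr5:136986955-136986979, plus strand: tgaagtcattACGTGatgttccctt
*P4hb*, chr11:120573295-120573319, minus strand: cgcccactgcCACGTtcgacggaga
*Ppib*, chr9:66060121-66060145, plus strand: cgcagggagaACGTGgcgcgctcct
*Serpinh1*, chr7:99353396-99353420, minus strand: cctgcttttcCACGTccaggaccgc
A match is a description of these letters and no binding was measured.

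*Rbfox2*, the deleted gene, had 58.4, 65.0 and 61.3 FPKM in control replicates 1, 2 and 3 and 38.1, 36.3 and 34.3 FPKM in mutant replicates 1, 2 and 3. The mutant mean was 58.8% of the control mean, and the 3 mutants lay below the 3 controls (log2 fold change -0.75, SE 0.079, adjusted p = 0.138 in limma). In bulk tissue, fewer cells of a type and less RNA per cell cannot be told apart. Summed over all genes, FPKM came to between 528123 and 590174, and how many reads lie behind a value is unknown. On the first principal component, with 54.7% of the variance, control and mutant replicate 1 lay at -19.1 and -17.0 and the other 4 samples between 7.55 and 11.01. The labels name no batch for these 2 samples. Y-linked genes averaged 14.4 and 13.9 FPKM in mutant replicates 1 and 2 and at most 0.0541 FPKM in the other 4 samples, which include all 3 controls. Across the 10061 genes tested in limma, 0 passed an adjusted p of 0.05, while 167 (1.66%) passed an unadjusted one.

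The genes of the set formed 2 tiers of expression. *Serpinh1* averaged 429.5 ± 14.6 FPKM over the 6 samples (SD, n = 6, here and for the other genes), *P4hb* 269.5 ± 22.5 and *Ppib* 215 ± 33.1 FPKM, and these 3 genes made up 82.9% to 85.4% of the summed FPKM of the set in each sample. *Crtap* followed at 37.9 ± 4.69 FPKM, *Plod2* at 26.9 ± 2.96, *P4ha1* at 26.5 ± 3.12, *Plod3* at 25.1 ± 3.63, *Plod1* at 20.3 ± 2.12, *P4ha2* at 17.5 ± 2.36 and *P4ha3* at 14.97 ± 1.08 FPKM. Each gene in this order was above the next in 6 of 6 samples, except that *Plod2* was above *P4ha1* in 3 of 6. Among the genes tested, the levels ran from the 98.3 percentile for *Serpinh1* to the 37.5 percentile for *P4ha3*.

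**Figure D1:**
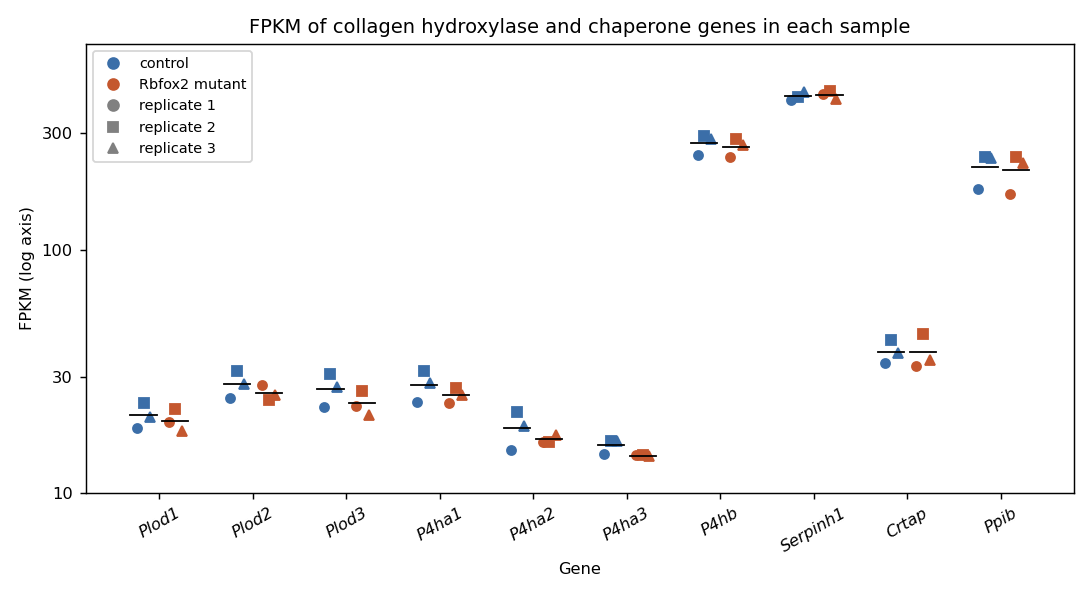
FPKM of each of the 10 genes (log axis) in the 3 control and 3 mutant samples, 1 point per sample with a line at the group mean. *Serpinh1*, *P4hb* and *Ppib* lie between 169.7 and 447 FPKM and the other 7 genes between 14.1 and 44.8, and the groups overlap for every gene but *P4ha3*.

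*Plod1* encodes lysyl hydroxylase 1, which modifies lysines in the helix, and lies at chr4:147909753-147936767 (GRCm38, minus strand). It had 18.5, 23.5 and 20.4 FPKM in control replicates 1, 2 and 3 and 19.5, 22.0 and 17.9 FPKM in mutant replicates 1, 2 and 3. The lowest value was a mutant and the highest a control, and the means of 20.8 ± 2.50 and 19.8 ± 2.07 FPKM (SD, n = 3 each) differed by less than the SD of either group. Its log2 fold change was -0.066, with a 95% interval of -0.34 to 0.20 in limma.

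*Plod2* encodes lysyl hydroxylase 2, which modifies the telopeptides at the chain ends and is the form linked to pyridinoline crosslinks, and lies at chr9:92542223-92608428 on the plus strand. Control replicates 1, 2 and 3 had 24.4, 31.8 and 28.1 FPKM, and mutant replicates 1, 2 and 3 had 27.8, 24.0 and 25.1 FPKM. Control replicate 1 stood among the mutants, and mutant replicate 1 among the controls. The log2 differences within replicate numbers 1, 2 and 3 were 0.18, -0.39 and -0.15, and the log2 fold change was -0.12 (95% interval -0.39 to 0.14). By the root mean square difference of centred log2 profiles over the 6 samples, the genes most like *Plod2* among the 10061 tested were *Ephb3* at 0.032, *Mylip* at 0.040 and *AC102815.1* at 0.040. Its nearest gene within the set was *P4ha2*, at 0.086 and rank 242.

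*Plod3* encodes lysyl hydroxylase 3, which also adds glucose to the galactose on hydroxylysine, and lies at chr5:136987019-136996648 on the plus strand. It had 22.6, 30.7 and 27.2 FPKM in control replicates 1, 2 and 3 and 22.7, 26.3 and 21.0 FPKM in mutant replicates 1, 2 and 3. Both first replicates had nearly the same value, and the highest value was that of control replicate 2. The log2 fold change of -0.19 (SE 0.13, 95% interval -0.50 to 0.12) was the lowest of the set. With replicates 2 and 3 alone it was -0.29.

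The share of *Plod2* in the summed FPKM of the 3 lysyl hydroxylases was also compared. It was 37.3%, 37.0% and 37.1% in control replicates 1, 2 and 3 and 39.7%, 33.2% and 39.3% in mutant replicates 1, 2 and 3. The controls lay within less than 1 percentage point of each other, and the mutants lay on both sides of them. The means of 37.1% ± 0.142 and 37.4% ± 3.66 (SD, n = 3 each) gave an exact two-sided permutation p of 1.0, where 3 samples against 3 cannot go below 0.10.

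*P4ha1*, *P4ha2* and *P4ha3* encode the catalytic alpha subunits of prolyl 4-hydroxylase, each of which pairs with the beta subunit. *P4ha1*, at chr10:59323296-59373304 on the plus strand, had 23.6, 31.6 and 28.3 FPKM in control replicates 1, 2 and 3 and 23.4, 27.0 and 25.3 FPKM in mutant replicates 1, 2 and 3. Each mutant was below the control of its number, by a log2 difference of -0.013, -0.22 and -0.16, but the groups overlapped. Its log2 fold change was -0.13 (SE 0.12, 95% interval -0.41 to 0.15).

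*P4ha2*, at chr11:54100095-54131665 on the plus strand, had 14.9, 21.5 and 18.8 FPKM in control replicates 1, 2 and 3. Mutant replicates 1, 2 and 3 had 16.2, 16.2 and 17.2 FPKM. The mutants lay close together between the lowest and the middle control, with a control mean of 18.4 ± 3.31 FPKM and a mutant mean of 16.6 ± 0.599 FPKM (SD, n = 3 each). The log2 fold change was -0.13 (SE 0.13, 95% interval -0.44 to 0.17).

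*P4ha3*, at chr7:100285520-100319699 on the plus strand, was the 1 gene of the set whose groups did not overlap. Over all genes tested, the mutants lay wholly below the controls in 2.37% and wholly above them in 2.63%. Control replicates 1, 2 and 3 had 14.4, 16.3 and 16.4 FPKM, and mutant replicates 1, 2 and 3 had 14.3, 14.2 and 14.1 FPKM. Control replicate 1 was close to the mutants, and the other 2 controls were higher. The mutant mean was 90.5% of the control mean, with a log2 fold change of -0.13 (SE 0.079, 95% interval -0.32 to 0.052, unadjusted p = 0.134 in limma) and an exact two-sided permutation p of 0.10, the smallest that 3 samples against 3 allow.

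*P4hb* encodes protein disulfide isomerase, which is the beta subunit of prolyl 4-hydroxylase and also acts alone on disulfide bonds of many secreted proteins. The gene lies at chr11:120560298-120573253 on the minus strand and had 244.8, 293 and 286 FPKM in control replicates 1, 2 and 3 and 239, 285 and 270.2 FPKM in mutant replicates 1, 2 and 3. Each mutant was below the control of its number, by a log2 difference of -0.032, -0.040 and -0.080. In both groups replicate 1 was the lowest and replicate 2 the highest, and the groups overlapped. It had a log2 fold change of -0.051 (SE 0.11, 95% interval -0.31 to 0.21).

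The summed FPKM of the 3 alpha subunits over that of *P4hb* was 0.217, 0.237 and 0.222 in control replicates 1, 2 and 3 and 0.225, 0.202 and 0.2096 in mutant replicates 1, 2 and 3. FPKM is scaled by length, so the ratio can be read as transcripts of alpha per transcript of beta, and beta exceeded alpha in every sample. The controls averaged 0.225 ± 0.0107 and the mutants 0.212 ± 0.0118 (SD, n = 3 each), a log2 difference of -0.087 with an exact two-sided permutation p of 0.30.

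*Serpinh1* encodes HSP47, the chaperone that binds the folded triple helix of procollagen, and was the most abundant of the 10. It lies at chr7:99345376-99353239 on the minus strand. It had 414, 423 and 443 FPKM in control replicates 1, 2 and 3 and 437, 447 and 414 FPKM in mutant replicates 1, 2 and 3. The values of both groups covered nearly the same range, and the coefficient of variation over the 6 samples, 3.40%, was the lowest of the set and below the median of 9.34% over all genes tested. Controls averaged 427 ± 15.1 FPKM and mutants 432 ± 16.8 FPKM (SD, n = 3 each). The log2 fold change was 0.019, with a 95% interval of -0.19 to 0.22. The sign of this fold change turned with replicates 2 and 3 alone, at -0.010.

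*Crtap* encodes the cartilage-associated protein, the helper subunit of the complex that 3-hydroxylates prolines, and lies at chr9:114375134-114390675 on the minus strand. It had 34.1, 42.4 and 37.4 FPKM in control replicates 1, 2 and 3 and 33.3, 44.8 and 35.3 FPKM in mutant replicates 1, 2 and 3. In both groups replicate 2 was the highest and replicate 1 the lowest. The log2 fold change was -0.014 (SE 0.13, 95% interval -0.33 to 0.30), and without control replicate 2 it was 0.067.

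*Ppib* encodes cyclophilin B, a proline isomerase of the same complex, and lies at chr9:66060222-66066623 on the plus strand. Control replicates 1, 2 and 3 had 177, 241 and 238 FPKM, and mutant replicates 1, 2 and 3 had 169.7, 240.5 and 226 FPKM. The first replicates of both groups were the lowest samples, and the mean of the other 4 samples was 1.36 times theirs, the largest such gap of the 10 genes. The log2 fold change was -0.048 (SE 0.17, 95% interval -0.46 to 0.36), and it was 0.063 with the Y-linked genes as a covariate.

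**Figure D2:**
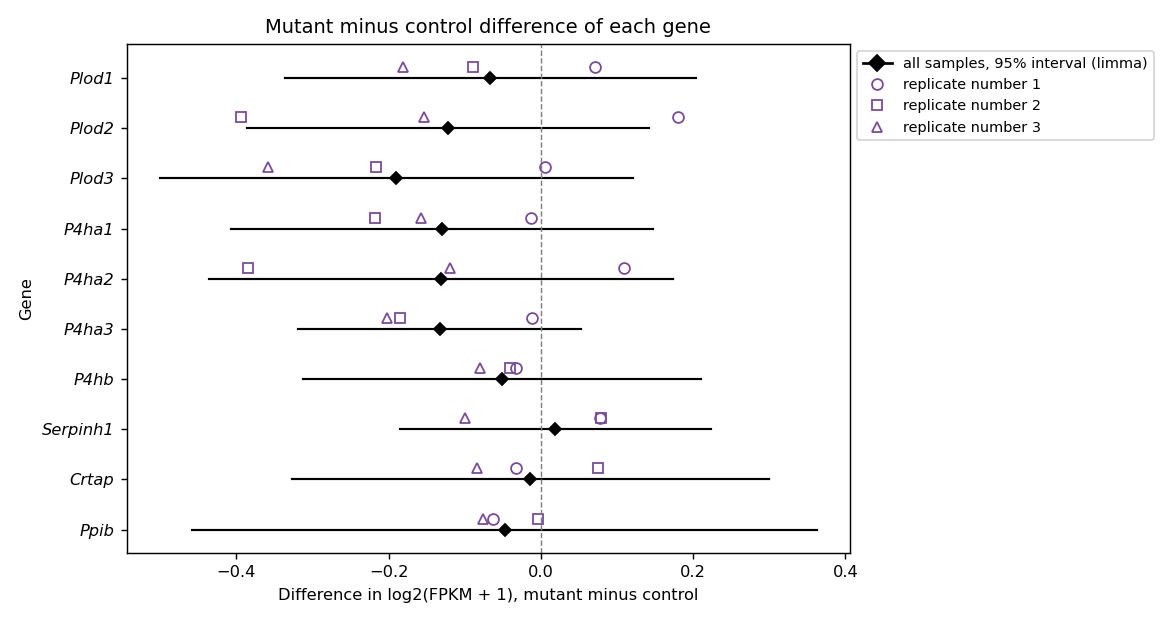
Log2 fold change of mutants over controls on the log2(FPKM + 1) scale for each of the 10 genes, with the 95% interval from limma and the 3 differences within replicate numbers as points. Every interval spans 0, and 9 of the 10 fold changes are below 0.

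All 10 genes passed the filter, which asked for an FPKM above 5 in each control or in each mutant. In limma, 0 of the 10 passed an adjusted p of 0.05 (0.00% of all genes tested) and 0 passed an unadjusted one (1.66%). The adjusted p of each gene was 1.0 in limma. The fold change was below 0 in 9 of the 10, against 47.2% of all genes tested, with a median log2 fold change of -0.094 against 0.0057 over all genes tested. The mutant was below the control of the same number in each of the 3 numbers for *P4ha1*, *P4ha3*, *P4hb* and *Ppib*, as in 13.1% of all genes tested. The median log2 fold change of the set was -0.0098 without control replicate 2, the highest sample in 7 of the 10 genes (21.1% of all genes tested).

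In 5 genes, *P4ha1*, *P4ha2*, *P4hb*, *Crtap* and *Ppib*, the other 4 samples were above both first replicates, as in 34.7% of all genes tested. With replicates 2 and 3 alone, the fold changes of all 10 genes were below 0. In the lists below, this held for 5 of 5 genes of the prolyl 3-hydroxylation list, 8 of 9 ER oxidoreductases and chaperones and 8 of 8 fibrillar collagens. It held for 7 of 9 export, 4 of 6 processing and crosslinking and 6 of 10 hypoxia response genes. Beyond collagen, it held for 7 of 7 epithelial, 6 of 6 skeletal muscle and 6 of 6 cartilage and bone markers. So it did for 9 of 10 cranial mesenchyme and 5 of 6 endothelial markers, but for 0 of 7 neuronal, 0 of 7 forebrain progenitor and 0 of 7 erythroid markers. The direction was thus not particular to collagen genes. The share below 0 over all genes was not computed for this fit. In it, 4 genes of the set had an unadjusted p under 0.05 in limma, all of them lower in the mutants, as for 5.74% of the 10258 genes tested there. These were *Plod2* (-0.27), *Plod3* (-0.29), *P4ha2* (-0.25) and *P4ha3* (-0.19). The smallest adjusted p among them was 0.409. Without control replicate 1 alone, 4 genes also had an unadjusted p under 0.05, namely *Plod3*, *P4ha1*, *P4ha2* and *P4ha3*, all lower in the mutants, as for 3.75% of the 10224 genes tested there. With the replicate number as a block of the fit to all 6 samples, 0 of the 10 had an unadjusted p under 0.05, against 3.70% of all genes tested in the lower direction. The labels tie no litter or day to these numbers. Here and below, the block therefore rests on a pairing seen in these same values, which was not clear between replicates 2 and 3.

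The set was also read against the collagen that it serves. The summed FPKM of the 10 genes over that of the 11 fibrillar collagen genes was 1.21, 0.931 and 1.17 in control replicates 1, 2 and 3 and 1.18, 1.17 and 1.33 in mutant replicates 1, 2 and 3. Control replicate 2 had the lowest ratio and mutant replicate 3 the highest, and the other 4 samples lay between 1.17 and 1.21. The log2 difference of mutants from controls was 0.16 with an exact two-sided permutation p of 0.40, and without control replicate 2 it was 0.046.

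**Figure D3:**
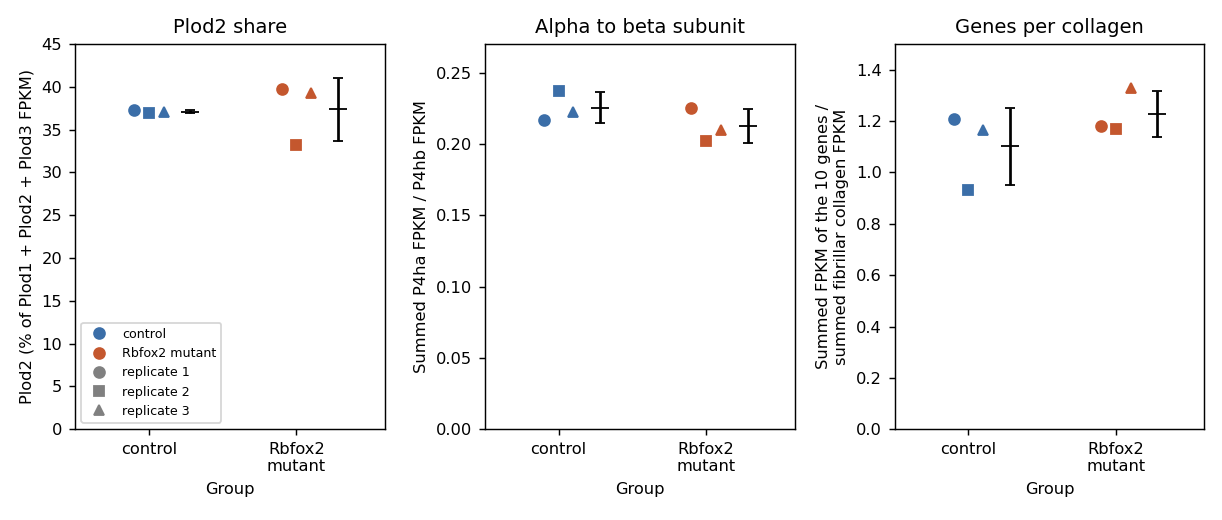
Each panel gives 1 value per sample, with points for the 3 controls and 3 mutants and the group mean with its SD beside them. The panels show the percent of summed *Plod* FPKM in *Plod2*, the ratio of summed *P4ha* to *P4hb* FPKM and the ratio of the 10 genes to the fibrillar collagens. The groups overlap in each panel.

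The genes that work beside the set were read from lists of the pathway, with counts in the same limma fit. The list named for prolyl 3-hydroxylation held *P3h1*, *P3h2*, *P3h3*, *P3h4* and *Fkbp10*, and its counts are not those of that step alone. In it, 5 of 5 genes passed the filter, 4 had a fold change below 0 and 1 had an unadjusted p under 0.05, as 0.954% of all genes tested had in the lower direction. This was *P3h3*, a prolyl 3-hydroxylase family member that forms a complex with lysyl hydroxylase 1. It had 43.2, 48.4 and 37.6 FPKM in control replicates 1, 2 and 3 and 38.2, 32.3 and 27.6 FPKM in mutant replicates 1, 2 and 3. The groups overlapped at 1 pair of samples, with a log2 fold change of -0.39 (SE 0.14, unadjusted p = 0.0272 and adjusted p = 1.0 in limma). *P3h1*, the catalytic partner of *Crtap* and *Ppib*, is named for that role after its values were seen, and had a log2 fold change of -0.098 (SE 0.18).

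Of the ER oxidoreductases and chaperones that handle procollagen, 9 of 9 passed the filter, 6 had a fold change below 0 and 0 had an unadjusted p under 0.05. The median log2 fold change was -0.0095, and the smallest p was that of the oxidase *Ero1l* (-0.049). The summed FPKM of this list was 1445 and 1506 in control and mutant replicate 1 and between 2079 and 2181 in the other 4 samples, a gap along the same samples as that of *Ppib*; its part in the values of *Ppib* was not tested. Of the lysine glycosylation genes, 1 of 2 passed, *Colgalt1*, which adds galactose to hydroxylysine (-0.031).

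Of the genes for export of procollagen from the ER, 9 of 10 passed and 0 had an unadjusted p under 0.05. The median was -0.069, and the smallest p was that of the ER stress transducer *Creb3l1*, which drives collagen transcription (-0.24, unadjusted p = 0.222 in limma). Of the processing and crosslinking genes outside the cell, 6 of 12 passed, 0 had an unadjusted p under 0.05 and the median was -0.11. The smallest p was that of *Lox*, the lysyl oxidase that starts crosslinks from lysine and hydroxylysine, with a log2 fold change of -0.37 (SE 0.22, unadjusted p = 0.133 in limma). With the replicate number as a block, *Creb3l1* and *Lox* each had an unadjusted p under 0.05, as 3.70% of all genes tested had in the lower direction.

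Of the fibrillar collagens, 8 of 11 passed the filter, all 8 had a fold change below 0, and the median was -0.17. *Col1a1*, the main chain of type I collagen, had 135, 162 and 123.3 FPKM in control replicates 1, 2 and 3 and 113, 121 and 82.1 FPKM in mutant replicates 1, 2 and 3. The 3 mutants lay below the 3 controls, by a log2 fold change of -0.42 (SE 0.17, unadjusted p = 0.0419 and adjusted p = 1.0 in limma). It was the 1 gene of the list with an unadjusted p under 0.05, against 0.954% of all genes tested in the lower direction. With the replicate number as a block 2 genes had one, both lower in the mutants, against 3.70% of all genes tested.

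Because the hydroxylases share their need for oxygen with the enzymes that mark HIF for decay, those and the genes that respond to hypoxia were listed too. Of the other 2-oxoglutarate oxygenases, 2 of 4 passed, and 0 had an unadjusted p under 0.05 without the replicate block and 1 with it, *Egln2* (2.31% of all genes tested in the higher direction). *Egln2*, a HIF prolyl hydroxylase, had 50.2, 47.5 and 49.7 FPKM in control replicates 1, 2 and 3 and 55.2, 53.3 and 53.6 FPKM in mutant replicates 1, 2 and 3. The mutants lay wholly above the controls, as in 2.63% of all genes tested. The log2 fold change was 0.13 (unadjusted p = 0.0895 in limma, and 0.0324 with the replicate block). Of the hypoxia response genes, 10 of 14 passed, 9 had a fold change below 0 and the median was -0.11. With replicates 2 and 3 alone, the fold change was below 0 in 6 of the 10. Over all 6 samples, the mutants lay wholly below the controls in 4 of the 10, against 2.37% of all genes tested. *Vegfa*, the growth factor of blood vessels, had 33.5, 27.4 and 25.3 FPKM in control replicates 1, 2 and 3 and 27.0, 16.0 and 19.6 FPKM in mutant replicates 1, 2 and 3 (log2 fold change -0.46, SE 0.19, unadjusted p = 0.0447 and adjusted p = 1.0 in limma). It was the 1 gene of the list with an unadjusted p under 0.05, against 0.954% of all genes tested in the lower direction. With the replicate number as a block 4 had one, all lower in the mutants, against 3.70% of all genes tested.

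**Figure D4:**
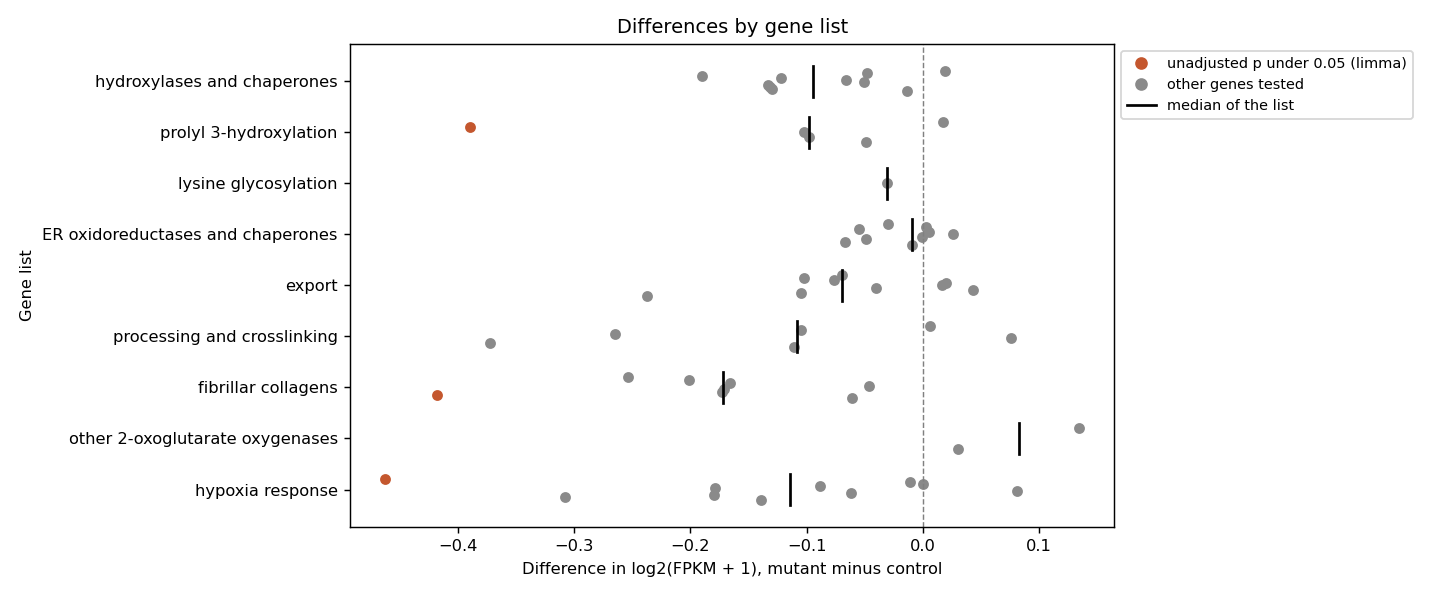
Log2 fold change of mutants over controls for each gene that passed the filter, 1 row per list, with the 10 hydroxylases and chaperones first and a mark at the median of each list. The medians run from -0.17 for the fibrillar collagens to 0.082 for the other 2-oxoglutarate oxygenases.

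Markers of the cell types in the tissue were summed per sample. Of the cranial mesenchyme markers, 10 of 10 passed the filter and 0 had an unadjusted p under 0.05, with summed FPKM of 395 to 444 in controls and 348 to 437 in mutants. Of the cartilage and bone markers, 6 of 10 passed and 0 had one, with sums of 215 to 313 in controls and 205 to 283 in mutants, and *Ibsp*, a marker of mature osteoblasts, was at 0.0509 to 0.770 FPKM. Of the neuronal markers, 7 of 7 passed and 4 had an unadjusted p under 0.05 in the higher direction (0.706% of all genes tested), with sums of 617 to 726 in controls and 768 to 874 in mutants, which did not overlap. With the replicate number as a block, 7 of the 7 neuronal markers had one, against 2.31% of all genes tested in the higher direction. Skeletal muscle markers (6 of 7 passed, 0 with an unadjusted p under 0.05) summed to 154 to 389 FPKM in controls and 146 to 223 FPKM in mutants. With the block, 5 of the 6 muscle markers had an unadjusted p under 0.05, each lower in the mutants, against 3.70% of all genes tested. Erythroid markers (7 of 8 passed, 0) summed to 5462 to 10753 FPKM in controls and 7393 to 10837 FPKM in mutants, and epithelial markers (7 of 7 passed, 0) to 132 to 219.9 and 136 to 177 FPKM. With the block, 2 erythroid markers had an unadjusted p under 0.05 in the higher direction and 2 epithelial markers in the lower. Forebrain progenitor markers (7 of 7 passed, 0), endothelial markers (6 of 6 passed, 0) and macrophage markers (2 of 6 passed, 0) overlapped between the groups. The part of these cell types in the values of the 10 genes was not tested.

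In the annotation, exons of 3 of the 10 genes overlap those of a gene on the other strand: 529 of 4519 exon bases of *Plod3* with *Znhit1*, 825 of 3305 of *Ppib* with *Snx22* and 346 of 5392 of *Plod2* with *Gm38391*. The library kit keeps the strand, but whether the counting used it is not given in the sources used here, so values of these 3 genes may hold reads of the partner.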

How the data were processed

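RNA-Seq was performed on craniofacial tissue of 3 control and 3 *Rbfox2* mutant E12.5 embryos, grouped by their labels. The authors aligned stranded paired-end reads to GRCm38 with STAR and deposited FPKM values per gene. The submitters' processing notes list FastQC 0.11.4, and the versions of STAR and Cuffdiff, the annotation release and the step that made the gene table are not given in the sources used here. The tables of single samples and the joint table differed in 0 values, and 95.0% of gene identifiers were found in GENCODE M21. FPKM keeps no read counts, so depth per value is unknown and no counting interval was given. The authors' processing scales out sequencing depth and gene length but not differences in cell makeup.

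The filter of the methods, an FPKM above 5 in each control or in each mutant, was applied to genes and left 10061. Values were taken to log2(FPKM + 1), which understates changes of low genes, and the groups were compared by limma (version 3.58.1, R version 4.3.3), allowing for an intensity trend and without covariates, with Benjamini-Hochberg adjustment over all genes tested. The fit was tested on simulated data. Ratios were compared by exact permutation tests in Python 3.11.15 with scipy 1.17.1. Named genes were the 10 genes of the set, *Rbfox2*, in each pathway list the genes with an unadjusted p under 0.05 (at most 3, or that of smallest p), and the 3 genes most like *Plod2*. *P3h1*, the other members of the prolyl 3-hydroxylation list and the marker *Ibsp* are named outside this rule. The genes and lists were chosen with earlier results of these data known.

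Same-numbered samples of both groups deviated together across genes (correlations of 0.64, 0.26 and 0.51 for replicates 1, 2 and 3), mainly because both first replicates stood apart. Between replicates 2 and 3 the numbers were not clearly matched. Mutant replicate 2 had a correlation of 0.40 with control replicate 3, above that with control replicate 2, and mutant replicate 3 had 0.23 with control replicate 2. The pairing comes from these values, since the labels tie no litter or day to the numbers. The alternatives were a pseudocount of 0.1, an FPKM filter of 1 or none, median ratio scaling, quantile normalization, no trend, the replicate block, replicates 2 and 3 alone, Y-linked genes as a covariate and each sample left out in turn. Promoter sequences are from RefSeq and transcripts from GENCODE.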

Additional observations from a re-analysis of the deposited data

How the results depend on the processing

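The directions of *Plod2*, *Plod3*, *P4ha1*, *P4ha2* and *P4ha3* held under every alternative run, and 136 of 150 alternatives for single genes of the set kept the direction and the side of the threshold, while 14 turned the sign of a small fold change. No gene of the set had an adjusted p under 0.05 in limma in any of them, and the lowest was 0.409. The sign turned for *Serpinh1* with replicates 2 and 3 only (-0.010) and with the Y-linked covariate (-0.044), for *Ppib* with the Y-linked covariate (0.063), and for the share of *Plod2* with replicates 2 and 3 only (-0.83 percentage points against 0.27). The count of all genes with an unadjusted p under 0.05, 167 in the fit reported, was 304 with an FPKM filter of 1, 663 with no filter, 604 with the replicate block and 1130 with replicates 2 and 3 only. With replicates 2 and 3 only, 4 genes passed the adjusted threshold in limma against 0, 4 genes of the set had an unadjusted p under 0.05 against 0, and *Rbfox2* passed (log2 fold change -0.82, adjusted p = 0.0407). The replicate block changed no call of the set or *Rbfox2*. For the ratios, no test with so few samples could reach a p under 0.05, with or without the block, so their calls could not change. The cause of the changed counts was not tested.

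When each sample was left out in turn, 0 to 5 genes passed the adjusted threshold in limma, 78 to 690 had an unadjusted p under 0.05, and 0 to 4 of these were of the set, the 4 without control replicate 1. The median log2 fold change of the set ran from -0.19 to -0.0098. Ranges were -0.22 to -0.032 for *Plod2*, -0.30 to -0.091 for *Plod3*, -0.24 to -0.036 for *P4ha1* and -0.27 to -0.018 for *P4ha2*, each nearest 0 without control replicate 2 and farthest from it without control replicate 1, and -0.19 to -0.10 for *P4ha3*. They were -0.14 to 0.020 for *Plod1*, -0.13 to 0.020 for *P4hb*, -0.0047 to 0.050 for *Serpinh1*, -0.14 to 0.069 for *Crtap*, -0.19 to 0.10 for *Ppib* and -0.79 to -0.71 for *Rbfox2*. The share of *Plod2* differed by -0.90 to 2.38 percentage points, the ratio of alpha to beta subunits by -0.13 to -0.049 and the ratio to the fibrillar collagens by 0.046 to 0.23 (log2). With *P4ha1* as the only alpha subunit the log2 difference was -0.083, and with *Col1a1*, *Col1a2* and *Col3a1* as the only collagens it was 0.19.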
